A study of Mus musculus with 5 samples.

Results

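The transcripts described here are long noncoding RNAs (lncRNAs) of the authors' catalogue that the catalogue ties to a protein-coding reference gene. They were chosen as lncRNA entries of 200 bases or more whose nearest reference transcript carries a RefSeq coding accession. Of 2190 such entries, 66 were shorter than 200 bases and 1, beside Sox4, was left out. This gave 2123 transcripts, 23.6% of the 8992 in the catalogue and part of the 37142 transcripts measured. They fall into 1712 loci, a locus being all members that share the authors' gene identifier, and name 1535 coding genes. Of these genes, 1527 have coding transcripts of their own in the table and 8 have none. For 93 loci, holding 153 transcripts, the authors' gene identifier is also that of coding transcripts, so these members may be further forms of the coding gene.

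All samples were polyadenylated RNA of adult wild-type C57BL/6 males, and no group carried an allele or treatment. Tissue was microdissected from the subventricular zone (SVZ), the wall of the lateral ventricle where new neurons arise, in 2 samples given as biological replicates. The olfactory bulb (OB), the dentate gyrus of the hippocampus (DG) and the striatum (STR) had 1 sample each, and the striatum served as the non-neurogenic tissue. The number of animals behind a sample is not stated in the labels. Values are FPKM, fragments scaled to transcript length and to the mapped fragments of the library, so levels are per length. In bulk tissue, fewer cells of a type and less RNA per cell cannot be told apart.

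Many mammalian protein-coding genes have a noncoding partner close by. Some partners are antisense RNAs that overlap the gene on the other strand, some start near the gene's own start and run the opposite way, and others lie in an intron. Such RNAs are spliced, capped and often polyadenylated like messenger RNAs, and several are known to act on their neighbour, while for most no function is known. In the adult brain many are found in particular regions or cell classes.

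A member typically had a short, simple structure. The median length was 845 bases, with quartiles of 543.5 and 1815.5 bases, and the extremes were 203 and 52401 bases. Transcripts with 2 exons numbered 1090 (51.3%), those with 3 exons 539 and those with 4 or more 476, up to 20 exons, while 18 had 1 exon. The median genomic span was 6312 bases. Catalogue lncRNAs that match a noncoding reference transcript, 1468 in number, had a median length of 1091 bases and 29.3% of them had 2 exons. The 5334 lncRNAs with no nearby reference had a median length of 800.5 bases and 54.4% with 2 exons, closer to the members.

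Position against the gene was read from GENCODE M21, the reference annotation on build GRCm38. A transcript was matched where chromosome, strand and every exon and intron length were the same, since the deposited coordinates are on the older build mm9. In this way 1641 members (77.3%) matched in full, 148 matched in their introns only and 334 did not match. The matched members were annotated as antisense in 1146 cases, as processed transcripts in 195, as intergenic lincRNA in 167 and as sense intronic in 51. GENCODE gave 49 of them as protein-coding and 10 as transcribed processed pseudogenes, against the noncoding label of the catalogue. The coding gene was found in GENCODE for 2086 members, and 1823 (87.4%) lay on the strand opposite to it.

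Of the 1614 members with both a full match and a found gene, 637 (39.5%) overlapped an exon of the gene on the opposite strand. A further 526 (32.6%) overlapped the span of the gene on the opposite strand without touching its exons. Whether a member lay wholly inside the gene was not asked. Starts within 1 kb of a start of the gene, on the opposite strand, were found for 295 (18.3%), counting starts inside the gene as well as upstream. Members with such a start were put in this class first, whether or not their exons overlap the gene. On the gene's own strand, 98 overlapped its span without touching its exons and 53 overlapped exons. Exons of any coding gene were overlapped by 962 of the 1641 matched members (58.6%). No source used here says whether the libraries kept strand, so over such stretches reads of the lncRNA and of the coding gene cannot be told apart.

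**Figure D1:**
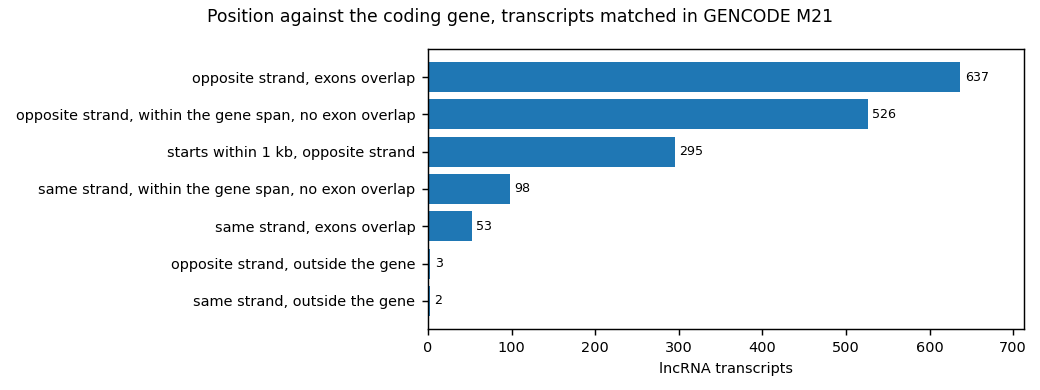
Number of lncRNA transcripts (horizontal axis) in each position class against the coding gene, for the 1614 transcripts matched in full. Opposite-strand classes hold nearly all of them, led by 637 with overlapping exons. Classes labelled as within the gene span required only that the spans overlap.

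Some of the loci named below are shown here by the stretch around their first splice junction, a join that exists only in the spliced RNA. Only loci matched in full could be shown, so those at Prox1, Fam19a1 and Kcng2, among others, are absent. Each line gives 30 bases before and 30 bases after the junction, 5′ to 3′ in the direction of the lncRNA, with the 8 bases on each side of the join in capitals and the coding gene in brackets. The sequences are those of GENCODE M21 transcripts with the same exon and intron lengths.
A830012C17Rik (Penk): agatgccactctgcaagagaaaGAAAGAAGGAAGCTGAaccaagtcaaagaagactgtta
1700003D09Rik (Ppp1r1b): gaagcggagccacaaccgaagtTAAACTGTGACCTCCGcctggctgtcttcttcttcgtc
Gm26794 (Kcnj3): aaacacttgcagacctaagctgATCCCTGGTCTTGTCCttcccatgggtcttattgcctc
Kcnab3os (Kcnab3): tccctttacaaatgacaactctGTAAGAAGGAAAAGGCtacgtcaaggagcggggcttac
Gm15270 (Ctgf): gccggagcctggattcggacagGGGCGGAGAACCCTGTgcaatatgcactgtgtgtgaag
Gm13584 (Lhx2): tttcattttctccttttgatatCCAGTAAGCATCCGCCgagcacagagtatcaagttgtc
Gm16075 (Rph3al): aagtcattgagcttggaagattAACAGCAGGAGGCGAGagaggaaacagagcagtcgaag
Gm16201 (Adam8): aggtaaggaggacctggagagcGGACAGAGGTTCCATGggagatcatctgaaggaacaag
A830036E02Rik (Krt12): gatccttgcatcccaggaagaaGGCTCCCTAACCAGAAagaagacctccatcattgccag
E130307A14Rik (Traf3ip2): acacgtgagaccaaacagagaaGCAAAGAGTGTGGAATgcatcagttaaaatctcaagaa

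In these 10 loci the first exon ranged from 38 bases in Gm16201 to 3270 bases in Gm26794. A830012C17Rik lies at chr4:4138321-4188703 on the plus strand of GRCm38, 1700003D09Rik at chr11:98350718-98358283 on the minus strand and Gm26794 at chr2:55433514-55437860 on the minus strand. Kcnab3os occupies chr11:69329825-69332122 (minus), Gm15270 chr10:24549447-24595817 (minus) and Gm13584 chr2:38359580-38363980 (minus). The plus-strand loci Gm16075, Gm16201 and A830036E02Rik are at chr11:75860969-75861494, chr7:139950440-139978977 and chr11:99419972-99425497. E130307A14Rik is on the minus strand at chr10:39639475-39645655.

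The libraries were made from polyadenylated RNA, so the last 50 bases of each matched member were searched on the transcript strand for the polyadenylation signals AATAAA (the usual form) and ATTAAA (a common variant). The usual form was present in 514 of 1641 members (31.3%) and the variant alone in 163 (9.93%). The shares were 31.2% and 9.56% over the 15477 lncRNA transcripts of the annotation, and 40.7% and 9.68% over its 58616 coding transcripts. Of the 10 loci shown, 4 had a signal, given in capitals in their last 50 bases.
1700003D09Rik (3′ end): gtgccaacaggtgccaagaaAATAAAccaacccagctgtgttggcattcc
Gm26794 (3′ end): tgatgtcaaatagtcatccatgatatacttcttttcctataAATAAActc
Kcnab3os (3′ end): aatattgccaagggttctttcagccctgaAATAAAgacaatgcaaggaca
Gm16075 (3′ end): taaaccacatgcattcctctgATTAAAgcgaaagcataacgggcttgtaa

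Gm26794 is of interest for its place on Kcnj3. It is transcribed against the gene from a start 695 bases from the nearest Kcnj3 start in GENCODE and 1890 bases downstream of the RefSeq start, and its first exon covers the whole window of 250 bases before that start. The promoter window, chr2:55435720-55435969 on the plus strand of GRCm38.p6 (RefSeq), is printed with its CCAAT motif in capitals. The motif lies on the minus strand and is therefore read as ATTGG.
Kcnj3 promoter: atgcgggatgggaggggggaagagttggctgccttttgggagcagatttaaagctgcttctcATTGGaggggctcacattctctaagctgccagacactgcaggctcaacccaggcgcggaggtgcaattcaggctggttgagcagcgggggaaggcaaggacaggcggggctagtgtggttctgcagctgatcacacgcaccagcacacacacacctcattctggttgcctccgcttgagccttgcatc
Searched on both strands, the window held 1 CCAAT and neither TATAAA nor GGGCGG. Over the 32851 promoter windows of the same length, CCAAT was found in 33.8%, TATAAA in 12.4% and GGGCGG in 32.7%. Such matches are letters only and say nothing on binding.

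Before the results, 2 features of the libraries need stating. The DG library listed 1098 of the 1712 loci at 0, against 457 to 548 in the other 4 libraries. SVZ sample 2 and STR shared high values of very short loci tied to Slc22a27, described further down. Those loci were far lower in SVZ sample 1, OB and DG. A short locus at Spata6 did not follow this pattern. The likeness of SVZ sample 2 to STR also went beyond short loci. The Rpl41 locus, with a longest transcript of 2576 bases, reached at most 11.66 FPKM in these libraries and at least 83.25 in the rest. Nothing in the labels names these features as batches. The dissection labels were checked against marker genes. Calb2, an OB interneuron gene, was at 657 FPKM in OB and at most 7.72 elsewhere, and C1ql2, a granule neuron gene, at 217 FPKM in DG and at most 1.15 elsewhere. Ependymal Foxj1 was at 61.0 and 23.5 FPKM across the SVZ samples and at most 7.49 elsewhere. The neuroblast genes Dcx and Dlx2 were highest in OB, at 37.5 and 50.1 FPKM, with Dcx at 16.3 and 17.95 and Dlx2 at 33.3 and 9.36 across the SVZ samples. Striatal neuron genes were high in the SVZ samples as well as in STR, with Drd1a at 108 and 119 FPKM against 158.

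Members were expressed at low levels. At 1 FPKM or more there were 287 loci in SVZ sample 1 (16.8%), 326 in SVZ sample 2, 270 in OB, 267 in DG (15.6%) and 318 in STR. Coding genes reached that level in 60.2% to 64.5% of cases, and other lncRNA loci in 16.8% to 21.6%. In at least 1 library 497 loci (29.0%) reached 1 FPKM, in every library 137, and 54 reached 10 FPKM somewhere. In all 5 libraries 215 loci were listed at 0. Counted as transcripts, 340 members (16.0%) were listed at 0 throughout, compared with 15.5% of lncRNAs matching a noncoding reference and 30.3% of those with no reference nearby. Their coding genes were mostly active: 1445 of the 1704 loci with a coding gene in the table had that gene at 1 FPKM or more in some library.

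The coding gene was usually far above its lncRNA. Over the 494 loci at 1 FPKM or more with a coding gene in the table, the median difference on log2(FPKM + 1) was 2.63 in SVZ sample 1, 2.14 in SVZ sample 2, 2.79 in OB, 2.60 in DG and 2.17 in STR. The SD between the SVZ samples was 0.34. SVZ sample 2 and STR gave the lower values, and SVZ sample 1, OB and DG lay within a range smaller than that SD. By position, members overlapping the gene's span but not its exons had medians of 2.62 to 3.72 on the opposite strand (59 loci). On the same strand their medians were 2.77 to 3.07 (19 loci), each range being over the 5 libraries. Members that start within 1 kb of the gene gave 2.13 to 2.44 (74 loci), and members with overlapping exons 2.23 to 3.30 on the opposite strand (189 loci) and 1.92 to 2.59 on the same strand (13 loci). The 140 loci without a full match gave 1.59 to 2.10.

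**Figure D2:**
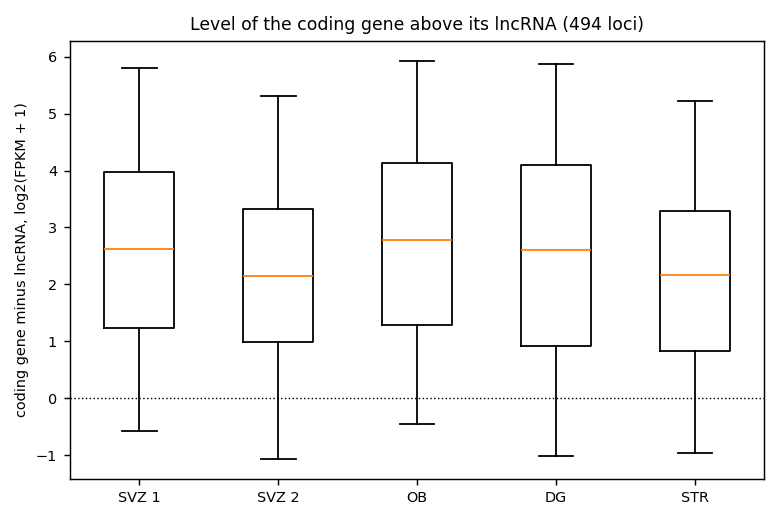
Coding gene minus lncRNA on log2(FPKM + 1) (vertical axis) over 494 loci in each library. Boxes span the quartiles with the median as a line, whiskers run from the 5th to the 95th percentile, and medians lie between 2.14 and 2.79.

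In 25 loci the lncRNA exceeded its coding gene in every library, and in 395 it did so in none. A830036E02Rik overlaps 395 exon bases of Krt12, the keratin of the corneal epithelium, on the opposite strand. It was at 16.5 and 7.80 FPKM across the SVZ samples, 62.9 in OB, 21.1 in DG and 17.0 in STR, while Krt12 stayed between 0.813 and 3.49. Both were highest in OB. E130307A14Rik lies within the span of Traf3ip2, an adaptor gene of interleukin-17 signalling, on the other strand and touches no exon of it. Its levels were 11.6, 6.08, 18.5, 11.7 and 7.5 FPKM in SVZ samples 1 and 2, OB, DG and STR, against 0.627 to 2.18 for the gene. In SVZ sample 2, where the gap was smallest, the lncRNA was at 429% of its gene. An unmatched locus of 1 exon at Slc37a2, a sugar phosphate transporter gene (chromosome 9, 37060507 to 37060950, mm9), ranged from 12.1 to 34.3 FPKM and its gene from 0.429 to 3.06.

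Some high members were copies or forms of other genes. 4930526A20Rik, within Tcp11 on its own strand, was at 6.71 to 25.4 FPKM and is annotated as a transcribed processed pseudogene. Cd63-ps, within the peroxisomal enzyme gene Hsd17b4, was at 20.8 to 101 FPKM and carries the same annotation as a copy of Cd63. Reads can be split between a pseudogene and its parent, so both levels are uncertain. At Fam36a the member, at 23.4 to 28.3 FPKM, matched a protein-coding transcript of the neighbouring gene Hnrnpu. The locus at Rpl41, a ribosomal protein gene, shares its gene identifier with the coding gene. Its level was 137 FPKM in SVZ sample 1, 137 in OB and 83.2 in DG, but 11.7 in SVZ sample 2 and 10.9 in STR.

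Fam219aos, antisense to 2310028H24Rik with 469 overlapping exon bases, was at 76.0 and 49.9 FPKM across the SVZ samples, 120 in OB, 70.0 in DG and 66.2 in STR. Its gene was at 47.1 to 162 FPKM and also highest in OB. Gm17494, whose introns matched, was at 38.6 to 153 FPKM beside Dnttip2 at 15.0 to 21.7, with STR highest for the lncRNA and DG for the gene. The locus Gm13889, tied to a gene with no coding transcript in the table, was at 71.0 and 45.9 FPKM across the SVZ samples, 110 in OB, 51.0 in DG and 15.7 in STR.

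Among the loci named for large regional differences, some whose gene differed in the same direction are given next, ordered by what their genes encode. Loci whose gene followed less or not at all come further down. Penk encodes the precursor of the enkephalin opioid peptides. Its partner A830012C17Rik, which starts within 1 kb of it and overlaps 233 of its exon bases, was at 6.31 and 21.2 FPKM across the SVZ samples and 26.2 in STR. It stood at 1.61 in OB and was listed at 0 in DG. The gene had 1581 and 1684 FPKM in the SVZ, 1213 in STR, 230 in OB and 12.4 in DG. SVZ and STR were thus high and DG lowest for both. The lncRNA was named for its SVZ minus DG difference, so both SVZ samples lying above DG was part of its choice. The SVZ minus DG difference on log2(FPKM + 1) was 3.67 ± 0.86 (SE) for the lncRNA and 6.93 ± 0.55 for the gene. The lncRNA level was 0.399% to 2.16% of the gene's in the 4 libraries where it was above 0.

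Ppp1r1b encodes DARPP-32, the phosphatase regulator of striatal projection neurons. The antisense lncRNA 1700003D09Rik shares 164 exon bases with it and was at 24.4 and 27.4 FPKM across the SVZ samples, 30.4 in STR, 0.396 in OB and listed at 0 in DG. Ppp1r1b was at 1627, 765, 940, 33.3 and 31.4 FPKM in the same order. Both were high in SVZ and STR and low in OB and DG. SVZ minus OB was 4.27 ± 0.40 for the lncRNA and 5.02 ± 0.72 for the gene, and SVZ minus DG was 4.75 ± 0.40 and 5.11 ± 0.72. The lncRNA level came to 1.19% to 3.59% of the gene's wherever it was above 0. The reads behind that share over the overlapping stretch cannot be assigned by strand.

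Kcnj3 encodes the GIRK1 subunit of the G protein-gated potassium channel, and Gm26794, whose first exon covers the promoter window printed above, overlaps 1621 of its exon bases. The lncRNA was at 1.15 and 0.948 FPKM across the SVZ samples, 1.23 in STR, 12.6 in OB and 14.8 in DG. Kcnj3 was at 5.62, 4.8, 5.10, 50.3 and 49.6 FPKM. Both were low in SVZ and STR and high in OB and DG. SVZ minus OB was -2.74 ± 0.37 for the lncRNA and -3.05 ± 0.40 for the gene, and SVZ minus DG was -2.95 ± 0.37 and -3.03 ± 0.40. The lncRNA level was 19.7% to 29.8% of the gene's over the 5 libraries. Reads over the 1621 shared bases cannot be assigned by strand, and their part in this share and in the matching differences was not tested.

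Kcnab3os runs antisense to Kcnab3, a beta subunit of voltage-gated potassium channels, with 147 shared exon bases. Its level was 0.513 and 0.767 FPKM across the SVZ samples, 5.10 in OB, 1.28 in STR and 0 as listed in DG, and the gene had 3.29, 4.14, 102, 6.86 and 8.54. OB was highest for both. The OB minus DG difference was 2.61 ± 0.32 for the lncRNA and 3.43 ± 0.47 for the gene. At Kcng2, a modulatory subunit of the same channel class, an unmatched locus was listed at 0 in both SVZ samples and was at 0.475 FPKM in OB, 11 in DG and 0.0395 in STR. Kcng2 itself was at 36.8 FPKM in DG, 4.13 in OB and at most 0.532 in the others. DG was highest for both, and SVZ minus DG was -3.59 ± 0.24 and -4.87 ± 0.41.

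Ctgf encodes connective tissue growth factor, a matrix-associated signalling protein. Gm15270 starts within 1 kb of it and overlaps 177 of its exon bases, over which reads cannot be assigned by strand. The lncRNA was at 16.9 FPKM in OB, 0.932 and 0 in the SVZ samples, 0.0979 in STR and 0 in DG. Ctgf was at 44.3 FPKM in OB and between 1.75 and 4.44 elsewhere. Only OB was high for either. SVZ minus OB was -3.69 ± 0.52 for the lncRNA and -3.59 ± 0.45 for the gene. OB minus DG was 4.16 ± 0.60 and 4.04 ± 0.52.

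Fam19a1 encodes a small secreted brain protein. Its unmatched partner (chromosome 6, 96051599 to 96066973, minus strand, mm9) was at 26.3 FPKM in DG and at 0.621, 0.280, 0.578 and 0.168 in SVZ samples 1 and 2, OB and STR. The gene was at 11.1 FPKM in DG and at most 0.377 elsewhere. In DG the lncRNA was at 237% of its gene. The SVZ minus DG difference was -4.24 ± 0.33 for the lncRNA and -3.20 ± 0.26 for the gene, and OB minus DG was -4.11 ± 0.38 and -3.16 ± 0.30. A locus at Fgf12, which encodes an intracellular sodium channel-binding relative of the fibroblast growth factors, was at 5.12 FPKM in OB and at most 0.383 elsewhere. Fgf12 was at 55.6 FPKM in OB and 18.1 to 44.0 elsewhere, so OB stood out less for the gene.

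**Figure D3:**
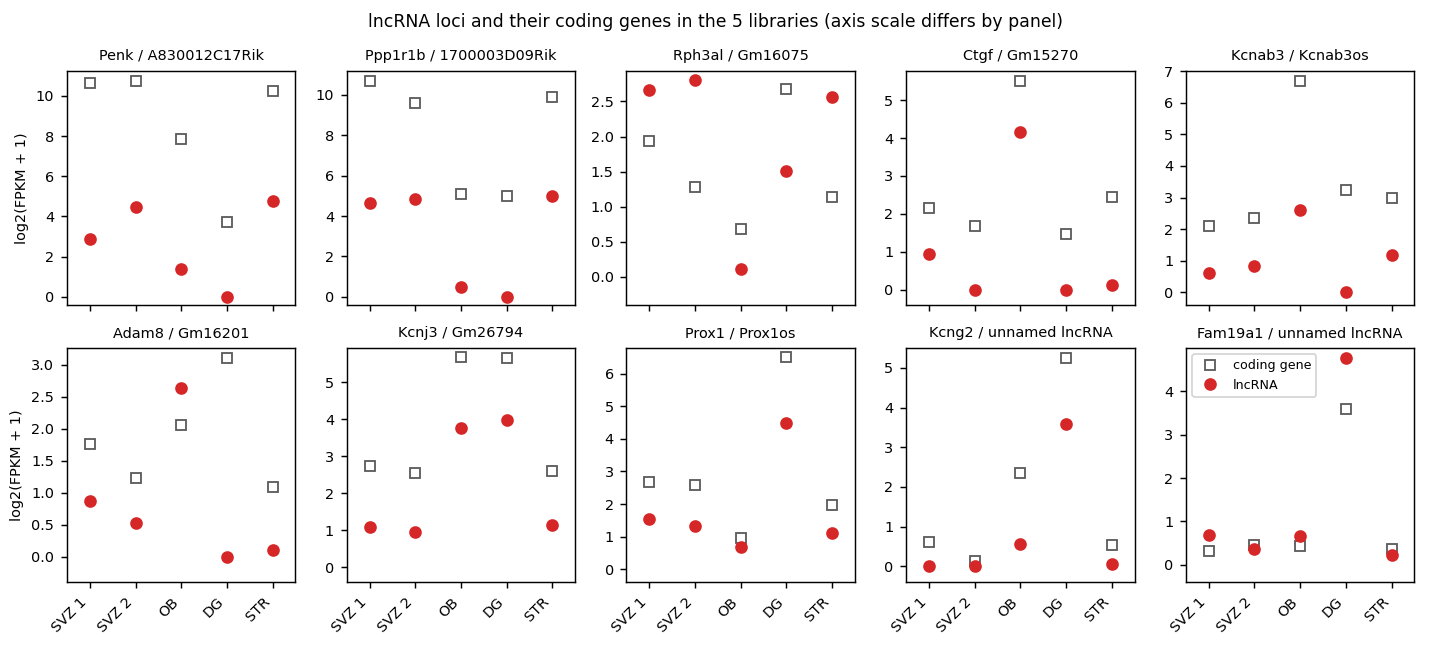
Level on log2(FPKM + 1) (vertical axis, scaled for each panel) of 10 lncRNA loci (filled circles) and their coding genes (open squares) in the 5 libraries. In the panels of Penk, Ppp1r1b, Ctgf, Kcnab3, Kcnj3, Prox1, Kcng2 and Fam19a1 lncRNA and gene are highest in the same regions, and in those of Rph3al and Adam8 they are not. The panels are a selection that does not stand for all members. Named loci whose gene hardly differed, such as those at Sort1 and Ankrd52, are not shown.

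Transcription factors of the developing and adult nervous system were looked up in a list of 94 genes. Of these, 14 had a member, in 15 loci, and 6 of the loci reached 1 FPKM. Prox1, the homeobox factor of dentate granule neurons, had Prox1os (chromosome 1, 191994175 to 192041157, plus strand, mm9) at 21.5 FPKM in DG, 1.93 and 1.51 in the SVZ samples, 0.613 in OB and 1.14 in STR. Prox1 was at 89.5 FPKM in DG, 5.39 and 5.01 in the SVZ, 0.925 in OB and 2.94 in STR. The order of the regions was the same for both, with DG highest and OB lowest. SVZ minus DG was -3.05 ± 0.35 for the lncRNA and -3.87 ± 0.40 for the gene, and OB minus DG was -3.80 ± 0.41 and -5.55 ± 0.46.

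Lhx2, a LIM homeobox factor of the forebrain, holds Gm13584 in its span on the other strand with no shared exon bases. The lncRNA was at 4.41 FPKM in DG and between 0.10 and 0.460 in the others, while Lhx2 was at 73.5 in DG, 42.2 and 17.5 in the SVZ, 31.8 in OB and 10.4 in STR. DG was highest for both, and the lncRNA set DG apart from the rest more than the gene did. SVZ minus DG was -2.10 ± 0.29 for the lncRNA and -1.40 ± 0.69 for the gene.

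The other 4 loci of the list reached at most 3.15 FPKM. A830082K12Rik, which starts within 1 kb of the nuclear receptor gene Nr2f1, was listed at 0 in DG and was at 2.04 FPKM in OB and 0.684, 1.23 and 0.890 in the SVZ samples and STR. Nr2f1 was at 27.2 FPKM in DG, 30.6 in OB and 3.48 to 9.14 in the others, so OB was highest for both but DG was not shared. The locus at Pou3f3, a POU-domain factor, was highest in STR at 3.15 FPKM, where the gene was at 37.9 against 54.8 and 52.8 in the SVZ. A330033J07Rik at Id4, an inhibitor of basic helix-loop-helix factors, was at 1.23 and 0.623 FPKM in the SVZ and 0.521 to 0.594 in the other regions. Id4 was at 117 and 116 in the SVZ and 33.2 to 67.0 in the others, so the SVZ samples were highest for both, by a small margin for the lncRNA. 4930538E20Rik at the zinc finger gene Bcl11a was at 0.132 in SVZ sample 1 and 2.02 in SVZ sample 2, a wider gap than between regions.

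The counts of loci by size were read against all features of the table. A locus was tested in a pair of regions if it reached 1 FPKM in a library of either, and counted as higher or lower if it differed by at least 1 unit on log2(FPKM + 1) with both SVZ samples on the same side. Between SVZ and STR, 20 of 412 member loci were higher in SVZ, 4.85% against 6.85% of all features, and 28 were lower, 6.80% against 1.86%. Between SVZ and OB, 47 of 425 were higher in SVZ, 11.1% against 7.8% of all features, and 35 were lower, 8.24% against 14.1%. Between SVZ and DG, 86 of 437 were higher in SVZ, 19.7% against 12.1%, and 47 were lower, 10.8% against 8.37%. Between OB and DG, 69 of 361 were higher in OB, 19.1% against 15.3%, and 51 were lower, 14.1% against 6.21%.

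Median differences of the members were -0.03, 0.12, 0.28 and 0.12 in these 4 pairs, and those of all coding genes 0.24, -0.24, 0.02 and 0.25. Other lncRNA loci had shares near the members', for example 23.6% higher and 12.5% lower in SVZ than in DG. In the pairs with DG, where members passed 1 unit in a larger share than coding genes, other lncRNA loci did so as well. The 2 SVZ samples alone differed by at least 1 unit in 18 loci higher and 61 lower in sample 1, of 380 (4.74% and 16.1%). Coding genes went the other way between these samples, with 12.0% higher and 1.85% lower in sample 1. Other lncRNA loci had 8.61% higher and 12.8% lower. With 1 sample of each other region, this gap inside a region limits every count here.

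By limma over all features, 0 member loci had an adjusted p under 0.05 in any of the 4 pairs, as had 0% of all features. The smallest Benjamini-Hochberg adjusted p of a member was 0.712 for SVZ minus STR, 0.170 for SVZ minus OB, 0.161 for SVZ minus DG and 0.175 for OB minus DG. At an unadjusted p under 0.05 there were 26 member loci for SVZ minus STR (6.31%, against 4.68% of all features) and 53 for SVZ minus OB (12.5% against 13.6%). There were 106 for SVZ minus DG (24.3% against 14.0%) and 90 for OB minus DG (24.9% against 12.4%). The fit has 1 residual degree of freedom, from the SVZ samples, and assumes that the single samples vary as they do. In simulated SVZ minus STR data on 16639 features, limma called 26 of 100 features shifted by 2 units and 100 of 100 shifted by 4 units. Of the 16439 features left unshifted there, 13.6% differed by at least 1 unit. That share did not ask for both SVZ samples on the same side, as the counts by size do. The simulated spread was a smooth function of mean level and the same in all 5 libraries. The simulated rates therefore need not hold for the real data. There no feature was called, although the gene Penk differed by 6.93 units for SVZ minus DG.

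**Figure D4:**
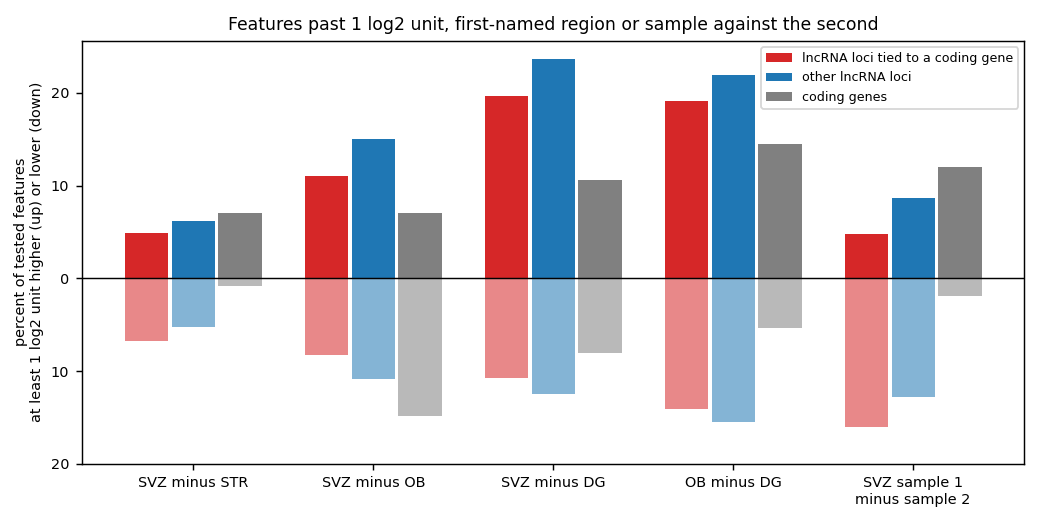
Percent of tested features at least 1 log2 unit higher (upward bars) or lower (downward bars) in the first-named region or sample, for member loci, other lncRNA loci and coding genes. Upward bars of members and other lncRNAs are longest where DG is compared. The longest downward member bar is that of SVZ sample 1 against sample 2, at 16.1%, with 4.74% upward. For other lncRNAs that downward bar, at 12.8%, lies between those of SVZ minus DG (12.5%) and OB minus DG (15.5%).

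The counts moved with the libraries used. No share of all features was taken with an SVZ sample left out, so these shifts cannot be assigned to the members in particular. SVZ minus STR gave 17 loci higher and 7 lower with SVZ sample 2 alone, and 31 higher and 58 lower with sample 1 alone. For SVZ minus OB, sample 1 alone gave 32 higher and 21 lower, and sample 2 alone 89 and 54. Values of 0 in DG stood behind 43 of the 86 loci higher in SVZ than in DG and behind 28 of the 69 higher in OB. Among coding genes this held for 172 of 1437 and 173 of 1933. With loci above 0 in every library of the pair, 43 were higher and 38 lower in SVZ than in DG, and 41 higher and 47 lower in OB than in DG. Scaling the libraries to a common median over coding genes moved the median of all features by -0.27, 0.25, 0.00 and -0.26 in the 4 pairs. The split then became 14 higher and 43 lower for SVZ minus STR, 58 and 26 for SVZ minus OB and 45 and 56 for OB minus DG. No share of all features was taken after scaling or for loci above 0. The changes in these settings thus cannot be assigned to the members in particular.

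Beyond the loci already described, the largest SVZ values against OB came with smaller differences of the gene. Gm16075, inside Rph3al, a gene of a Rab effector in exocytosis, was at 5.36 and 5.99 FPKM across the SVZ samples, 4.93 in STR, 1.83 in DG and 0.0823 in OB. Rph3al was at 2.81 and 1.43 in the SVZ, 1.2 in STR, 5.40 in DG and 0.605 in OB. OB was lowest for both, but DG was highest for the gene and not for the lncRNA. SVZ minus OB was 2.62 ± 0.35 for the lncRNA and 0.92 ± 0.44 for the gene. The locus at Smug1, a uracil-DNA glycosylase gene, was at 4.10 and 5.67 FPKM in the SVZ, 1.46 in STR, 0.0271 in OB and 0 in DG, and SVZ minus OB was 2.51 ± 0.34. Smug1 itself lay between 5.37 and 10.5 FPKM in all libraries, and the member shares its gene identifier.

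Several loci differed where the gene hardly did. Gm12523 starts within 1 kb of the sortilin gene Sort1 and overlaps 338 of its exon bases. The lncRNA was at 10.8 FPKM in SVZ sample 1 but 0.577 in sample 2, 21.9 in OB, 16.5 in DG and 2.09 in STR. Sort1 was at 80.8 to 133 FPKM. For the lncRNA, SVZ minus OB was -2.40 ± 1.43, and -0.95 with SVZ sample 1 alone. Gm17201, antisense to the phosphatase subunit gene Ankrd52, was at 2.47 and 10.3 FPKM in the SVZ, 4.55 in OB, 10.1 in STR and 0 in DG, with the gene at 12.1 to 37.4. SVZ minus DG was 2.64 ± 0.89 for it and -0.21 ± 0.50 for the gene. A locus of 225 bases at Naa38 was at 5.49 FPKM in DG, 0.516 in STR and 0 in the other 3 libraries, beside a gene at 17.3 to 24.3.

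Against STR, the members with the largest SVZ values were Gm14964, the Rpl41 locus, Gm13889 and Efhd1os. Gm14964, antisense to the synaptic adhesion gene Nrxn2, was at 15.7 and 10.4 FPKM in the SVZ, 2.59 in STR, 6.47 in OB and 2.06 in DG, and SVZ minus STR was 1.94 ± 0.47. Nrxn2 was at 62.3 and 42.6 in the SVZ, 42.0 in STR and 212 in OB, so that the gene was highest in OB and the lncRNA in the SVZ. Efhd1os starts within 1 kb of Efhd1, a gene of a mitochondrial calcium-binding protein, and overlaps 254 of its exon bases. It was at 4.41 and 1.95 FPKM in the SVZ, 0.311 in STR, 2.11 in OB and 3.83 in DG, a difference of 1.61 ± 0.52, while Efhd1 differed by -0.03 ± 0.39. Gm13889 differed by 1.80 ± 0.49. The Rpl41 locus differed by 1.81 ± 1.68, and by 0.09 with SVZ sample 2 alone.

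The 4 members with the largest differences in favour of STR over SVZ were loci whose highest transcript was under 300 bases, and at 3 of them, all tied to Slc22a27, SVZ sample 2 and STR stood apart from the other libraries. Slc22a27 is an organic anion transporter gene in a cluster of similar genes, so reads there may be shared between copies. It was listed at 0 in every library, while 3 loci tied to it have highest transcripts of 205, 288 and 264 bases. The locus of 288 bases reached 433 FPKM in SVZ sample 2 with 453 in STR, and stood at 0.108, 0.367 and 0.0661 in SVZ sample 1, OB and DG. The locus of 264 bases reached 715 FPKM in SVZ sample 2 with 737 in STR, and stood at 55.4, 37.9 and 60.8 in the others. SVZ minus STR was -3.27 ± 3.01, -4.37 ± 4.11 and -1.88 ± 1.80 for the 3 loci, and -0.12, -0.06 and -0.04 with SVZ sample 2 alone. The locus of 264 bases also gave 2.37 for SVZ minus OB, and 0.53 with sample 1 alone. That of 288 bases gave 4.36 for SVZ minus DG, and 0.06 with sample 1 alone. At Spata6 a locus of 286 bases ranged from 0.939 FPKM in SVZ sample 2 to 35.1 in STR, a difference of -2.78 ± 1.42, with SVZ sample 1, OB and DG at 13.2, 16.5 and 18.5. There SVZ sample 2 and STR were the lowest and the highest library.

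Length went with the gap between the SVZ samples. Over 380 loci, SVZ sample 1 minus sample 2 gave Spearman rho = 0.27 with transcript length, and rho = 0.18 with GC content over the 274 loci with a full match; the loci share the same 2 libraries. The 15 loci under 300 bases had a median of -1.54, and 12 of them were at least 1 unit lower in sample 1. The 365 longer loci had a median of -0.04, with 49 lower. Without loci under 300 bases, 18 members were lower in SVZ than in STR in place of 28, and no share of all features was taken there. The part of fragment length or library preparation in these values was not tested.

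Members and genes were then compared in direction. Where a member passed 1 unit and its gene was tested, the gene passed 1 unit in the same direction in 4 of 41 loci for SVZ minus STR, 28 of 76 for SVZ minus OB, 30 of 123 for SVZ minus DG and 37 of 114 for OB minus DG. It passed in the opposite direction in 1, 4, 3 and 5 loci. For comparison, over all loci with both tested, genes past 1 unit numbered 23 higher and 2 lower of 388 for SVZ minus STR, and 35 and 78 of 401 for SVZ minus OB. They numbered 44 and 33 of 411 for SVZ minus DG, and 55 and 23 of 341 for OB minus DG. Genes that passed where the member did not numbered 20, 81, 44 and 36. The sign alone was shared in 24, 57, 78 and 88 loci. Pearson's r between the 2 differences, across all loci with both tested, was 0.20 (388 loci), 0.51 (401), 0.47 (411) and 0.50 (341), and Spearman's rho was 0.20, 0.46, 0.31 and 0.39. All loci are read from the same 5 libraries, so r and rho are descriptions of the table. With SVZ sample 2 alone, 0 of 21 members shared their gene's direction past 1 unit for SVZ minus STR, and with sample 1 alone 14 of 80.

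Shared reads could enter these figures where exons overlap. Among loci matched in full that overlap no coding exon, the gene passed in the same direction in 1 of 8, 4 of 18, 6 of 22 and 9 of 20 loci in the 4 pairs. The corresponding r was 0.12 (64 loci), 0.41 (67), 0.34 (67) and 0.44 (54). Gm13584 at Lhx2 is such a case for OB minus DG. Gm16075 at Rph3al went with its gene for OB minus DG (-1.39 against -1.995) but against it for SVZ minus DG (1.23 against -1.07). The part of unassigned strand in the other loci was not tested.

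**Figure D5:**
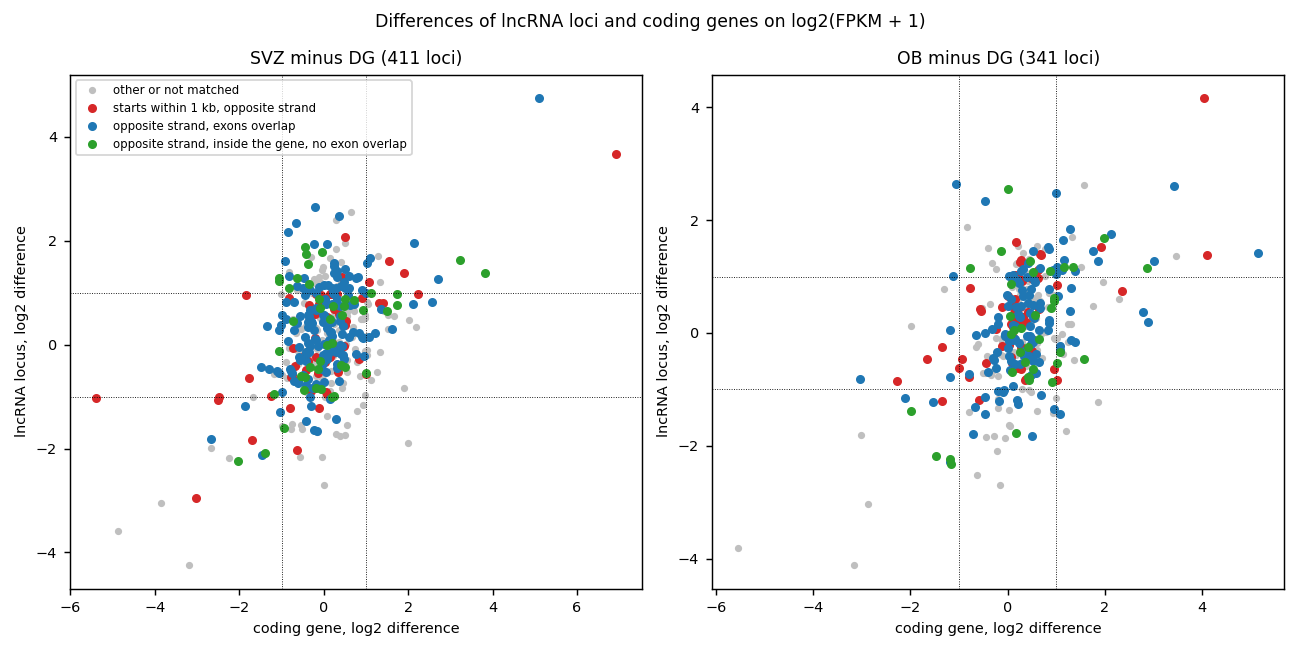
Difference of each lncRNA locus (vertical axis) against that of its coding gene (horizontal axis) on log2(FPKM + 1), for SVZ minus DG (411 loci) and OB minus DG (341 loci), coloured by position, with dotted lines at 1 unit. The loci of Penk and Ppp1r1b lie at the upper right for SVZ minus DG, and that of Ctgf at the top for OB minus DG. The class labelled as inside the gene required only that the spans overlap.

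Loci that start within 1 kb of their gene on the opposite strand had r = 0.69 for SVZ minus DG (63 loci), 0.63 for OB minus DG (59) and 0.60 for SVZ minus OB (60), but 0.13 for SVZ minus STR (54). Whether these values differ from those of the other positions was not tested. For SVZ minus DG, all 14 such loci past 1 unit had the sign of their gene, and in 9 the gene passed 1 unit too. For OB minus DG all 12 shared the sign, 4 of them past 1 unit in the gene, and for SVZ minus OB 11 of 13 did. For SVZ minus STR the sign was shared by 2 of 5.

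Examples from this class, chosen after their values were seen, come from several gene families. Runx2os1 at the Runt-domain factor gene Runx2 was at 3.71 FPKM in OB and 3.01 in DG, and at 0.259, 0 and 0 in the SVZ samples and STR. Runx2 was at 4.11 in OB, 3.75 in DG and at most 0.591 in the others, so OB and DG were high for both. Junos at Jun, a subunit of the AP-1 factor, was at 1.75 FPKM in DG and at most 0.518 elsewhere, and Jun was at 116 in DG and at most 45.3 elsewhere. Gm11650 at Cacng4, an auxiliary subunit of AMPA receptors, was at 1.60 to 1.86 FPKM in 4 libraries and 0 in DG, with Cacng4 at 40.5 to 80.6 and 14.7. Gm17396 at Rbms3, an RNA-binding protein gene, was at 4.41, 4.26, 3.28 and 5.65 FPKM across the SVZ samples, OB and STR and 0.757 in DG. The lncRNA was near its gene in level there, Rbms3 being at 1.55 to 8.23.

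Loci that went against their gene past 1 unit numbered 1 to 5 in each pair, Gm16075 at Rph3al among them. Gm16201 shares 46 exon bases with Adam8, a membrane metalloprotease gene, and 636 with coding genes in all. It was at 5.24 FPKM in OB, 0.822 and 0.447 in the SVZ samples, 0.0767 in STR and 0 in DG, where Adam8 was highest at 7.63 against 3.16 in OB. OB minus DG was 2.64 ± 0.33 for the lncRNA and -1.05 ± 0.49 for the gene. The remaining examples were chosen after their values were seen. At the receptor gene S1pr3 the lncRNA was at 7.03 FPKM in DG and 1.41 in OB, and the gene at 1.37 and 4.48. At Rere, a nuclear receptor co-regulator gene, the lncRNA was at 0.492 and 2.93 FPKM in the SVZ, 0.151 in OB and 0 in DG, and the gene at 42.7 and 23.3, 73.4 and 66.4. At Lrp8, a reelin receptor gene, the lncRNA was at 3.95 and 1.73 FPKM in the SVZ and 0.615 in OB, and the gene at 12.1 and 12.4 against 27.5.

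Loci at the extremes of structure were mostly weakly expressed. The member with 20 exons, at Trap1a, reached at most 0.0382 FPKM. Loci with up to 15 exons at Usp9x, 14 at Ednra and 11 at Abhd12b reached 0.304, 0.0570 and 0.0735 FPKM. The member at Usp9x matched a coding transcript on the gene's own strand. The longest transcript, 52401 bases at the Vcan locus, belonged to a locus at no more than 0.0905 FPKM. Among the other long members, the locus of 21972 bases at the splicing factor gene Rbfox1 was at 2.71 and 4.27 FPKM in the SVZ, 1.44 in OB, 1.24 in DG and 10.3 in STR. Gm266, with a transcript of 18416 bases, was at 1.03 to 2.39 FPKM, and the locus at 2610044O15Rik at 2.79 to 9.89. By number of transcripts the first loci were Gm4302 with 18, which reached 0.010 FPKM, the third Slc22a27 locus with 8, Gm4944 with 7 at 0.792 to 1.67 FPKM, and Ncald with 6 at up to 0.926 FPKM in DG. DG was also where Ncald, a neuronal calcium sensor gene, was highest, at 299 FPKM.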

How the data were processed

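Poly(A)-selected RNA was sequenced from 4 brain regions in 5 libraries. The submitters' processing notes name CASAVA, TopHat 1.2.0, Cufflinks 1.0.0 and build mm9 without their roles. The authors deposited FPKM values per transcript and the exon structure of their lncRNA catalogue, whose score column was not used. FPKM values carry no counts, so the depth is unknown and no counting interval is given, and a 0 may be a failed estimate.

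Members were summed per gene identifier and coding transcripts per symbol. Differences were taken on log2(FPKM + 1), which understates folds of low loci. The test was limma 3.58.1 (R 4.3.3, trended empirical Bayes) over every feature with 1 FPKM or more in either region of a pair, with Benjamini-Hochberg adjustment over them. It was tested on simulated data. The p-values measure only the spread between the 2 SVZ samples. OB and DG were not compared with STR. Loci matched GENCODE M21 by exon and intron lengths, and RefSeq promoters by symbol. Named loci were the 8 highest, the 4 largest differences each way in each of the 4 pairs, the 6 with the largest excess over their gene, the 4 at each extreme of structure, and detected loci of the transcription factor list. The members and lists were chosen with earlier results of these data known. Alternatives were another pseudocount, filter, scaling or summing, and leaving out each SVZ sample.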

Additional observations from a re-analysis of the deposited data

How the results depend on the processing

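No paired analysis was possible because the regions share fewer than 2 replicate numbers. With a pseudocount of 0.1, loci higher and lower numbered 41 and 61 for SVZ minus STR and 95 and 67 for SVZ minus OB. They numbered 151 and 81 for SVZ minus DG, and those lower for OB minus DG 83. No share of all features was taken at this pseudocount, so the rise cannot be assigned to the members in particular. Members sharing their gene's direction then numbered 11, 61 and 51 in the 3 SVZ pairs. The median gap between gene and lncRNA became 3.40 and 2.77 in the SVZ samples, 3.61 in OB, 3.58 in DG and 2.78 in STR. Without a filter on low values, limma tested 1712 member loci among 28120 features. It called 16, 68 and 68 member loci for SVZ minus STR, SVZ minus OB and OB minus DG, and 0 for SVZ minus DG. Over all features it called 93, 894 and 945 in the same order, and 0 for SVZ minus DG. The calls were therefore not confined to the members. Scaling of the libraries gave 43 loci lower for SVZ minus STR and 45 higher for OB minus DG, again with no share of all features taken.

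Leaving out 1 SVZ sample gave ranges for SVZ minus STR of 17 to 31 higher, 7 to 58 lower and 0 to 14 in a shared direction. For SVZ minus OB they were 32 to 89, 21 to 54 and 24 to 47, and for SVZ minus DG 73 to 119, 46 to 54 and 33 to 38. Alternatives chosen after seeing the data gave 18 lower for SVZ minus STR at 300 bases or more. Loci above 0 in every library of the pair gave 43 higher for SVZ minus DG, 41 for OB minus DG and 17 in a shared direction for SVZ minus DG. Loci without coding exon overlap gave 1, 4, 6 and 9 in a shared direction. The cause was not tested, except that the last 3 settings use fewer loci. No share of all features was taken in these settings or with an SVZ sample left out. Of 112 alternative values of the named loci, 105 stayed at 1 unit or more in the same direction, 7 fell short of 1 unit and 0 changed sign. These loci were chosen for large differences with both SVZ samples on the same side. Leaving out 1 SVZ sample therefore could not change the sign, and a smaller pseudocount could only widen the difference. The planned restriction to antisense class codes was not run, because the table has none; opposite-strand loci were used instead. Unknown depth limits every low value.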
